A study of Mus musculus with 6 samples.

Results

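The genes described here carry out or restrain programmed cell death, or stand in the p53 pathway: 48 genes of the apoptosome, caspases, death receptors and their adaptors, caspase inhibitors, p53 regulators and p53 target genes. They were chosen by name, and each was read from the rows of the deposited array table that carry exactly that 1 gene symbol, with the brightest row kept where there were several. This gave 45 measured genes of the 22180 genes tested. Trp53, the gene of p53 itself, and Ripk1, a kinase of the tumour necrosis factor receptor complex, had no row naming them, alone or shared. They are not analysed here. Gadd45a shared its only row with another gene and was left out as well.

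The cells were a PU.1low URE-/- line of mouse acute myeloid leukaemia, taken from 1 mouse at the leukaemic stage. URE stands for an upstream regulatory element, an enhancer of Spi1, the gene of PU.1, and the mouse carried a deletion of it. Both groups carried this deletion, and both grew in medium with serum and with supernatants of WEHI and BHK cells. In the treated group, 3 samples received DB2313, described in the labels as an inhibitor of the transcription factor PU.1, at 330 nM for 24 h. In the vehicle group, 3 samples received the same volume of water for 24 h. The labels call the replicates biological but do not say whether they were started separately, so the spread behind the p-values may be partly technical. The comparison asks which transcripts differ after 24 h of the inhibitor, and the data are RNA levels on Affymetrix arrays, in which the number of arrays limits the precision. In such bulk samples fewer cells of a type and less RNA per cell cannot be told apart.

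Cells die by apoptosis along a pair of routes. In the mitochondrial route, cytochrome c leaves the mitochondrion and joins Apaf1 in the apoptosome, which activates caspase 9. In the other, ligands of Fas and of the tumour necrosis factor receptors recruit adaptors that activate caspase 8. Both routes end in executioner caspases, which inhibitor of apoptosis proteins hold back, while the decoy protein cFLIP blocks caspase 8 upstream. p53 is a transcription factor stabilised by DNA damage and other stress, which switches on genes that arrest the cell cycle, repair DNA or favour death, and also switches on Mdm2, which degrades it.

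The level of signal was alike on all arrays. The 6 arrays had median log2 signals of 4.77 to 4.82, and the first principal component, with 37.2% of the variance, separated the groups. Of 10 markers of myeloid leukaemia cells, fixed as a list, the granule genes Elane, Ctsg and Prtn3 had vehicle signals of 13.05, 12.51 and 12.46, while the row of the pan-leukocyte gene Ptprc was dim at 3.32. The mean signal over these 10 markers ranged from 9.12 to 9.25 in vehicle and from 9.11 to 9.23 with DB2313. Of the 10, 1 passed, Spi1, which gave 6.79, 6.88 and 6.95 in vehicle and 6.52, 6.49 and 6.50 with DB2313 and was lower by a log2 difference of -0.37 (limma adjusted p = 0.0342). That call was lost when any single array was dropped, at adjusted p of 0.0648 to 0.134. The 8 measured B and T cell markers averaged between 3.84 and 3.93 in vehicle and between 3.83 and 3.90 with DB2313, and the 6 erythroid and megakaryocytic markers between 4.71 and 4.83 and between 4.62 and 4.69. The 10 macrophage and dendritic cell markers averaged between 4.83 and 4.93 in vehicle and between 4.73 and 4.82 with DB2313, so the latter were lower on every array; none of the 10 passed, with Cd68 at -0.47 (limma adjusted p = 0.0554) and Itgax at -0.25 (0.288) as the smallest p. The 10 markers of fibroblasts and endothelium averaged between 5.21 and 5.28 and between 5.32 and 5.44, with Cdh5 as the member past the threshold (log2 difference 0.86). The part of these shifts in the results on death genes was not tested.

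The promoter sequences of 4 genes are shown because the genes had the smallest p-values of all 45 (Apaf1, Cdkn1a and Casp2) or of the death receptors (Fas). They come from RefSeq, build GRCm38.p6, and run 5′ to 3′ on the strand of the gene. Each lies within the 250 bases before the annotated start, cut where an earlier start of the same gene begins. Capitals mark matches to GAGGAA on either strand, the core of the PU box bound by PU.1, and to the p53 half-site consensus, which reads alike on both strands.
Apaf1, chr10:91082744-91082993, minus strand: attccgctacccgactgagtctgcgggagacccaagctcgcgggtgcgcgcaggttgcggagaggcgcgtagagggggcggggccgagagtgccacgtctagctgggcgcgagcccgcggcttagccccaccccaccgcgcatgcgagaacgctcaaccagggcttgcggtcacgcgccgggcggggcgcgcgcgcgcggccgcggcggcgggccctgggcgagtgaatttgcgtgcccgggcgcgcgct
Casp2, chr6:42264735-42264901, plus strand: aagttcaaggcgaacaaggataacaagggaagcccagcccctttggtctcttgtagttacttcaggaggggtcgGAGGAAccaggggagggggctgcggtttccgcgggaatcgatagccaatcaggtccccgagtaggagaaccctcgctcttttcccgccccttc
Cdkn1a, chr17:29090729-29090978, plus strand: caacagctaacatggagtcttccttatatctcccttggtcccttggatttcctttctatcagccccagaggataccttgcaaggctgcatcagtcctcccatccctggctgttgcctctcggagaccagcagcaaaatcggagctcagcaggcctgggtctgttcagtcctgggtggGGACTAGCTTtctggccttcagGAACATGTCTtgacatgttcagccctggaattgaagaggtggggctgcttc
Fas, chr19:34290409-34290646, plus strand: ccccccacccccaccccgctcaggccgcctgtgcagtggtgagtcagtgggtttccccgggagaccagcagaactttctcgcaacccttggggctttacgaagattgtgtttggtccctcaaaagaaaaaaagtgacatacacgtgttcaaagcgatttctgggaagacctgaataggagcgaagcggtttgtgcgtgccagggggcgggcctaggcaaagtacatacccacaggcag
The Casp2 window held 1 match to GAGGAA, starting 176 bases before the start site of the table. The Cdkn1a window held 2 matches to the p53 half-site, at 73 and 51 bases before the most upstream of its annotated starts. A second Cdkn1a promoter, with its start further inside the gene, held none. The distances given do not refer to that second start. Neither motif was found in the windows of Apaf1 and Fas.

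Across the 47 promoter windows that RefSeq gave for 39 of the 45 measured genes, GAGGAA occurred in 9 (19.1%), against 23.3% of all 32851 promoter windows of the same length. The p53 half-site occurred in 6 of the 47 (12.8%), against 7.13% of all windows. Those 6 belonged to Cdkn1a, Mdm2, Ccng1, Sesn1, Aen and Ei24. Apart from Cdkn1a, whose log2 difference was -0.50, these genes lay between -0.10 (Sesn1) and 0.03 (Ccng1), and none of the 6 passed the test. The window of Cdkn1a was the only one of the 47 with 2 half-sites, which 0.259% of all windows had. A match is a string of letters and no measurement of binding.

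After 24 h of DB2313, 1 of the 45 genes passed the test, and differences were small throughout. Apaf1, the apoptosome scaffold, rose 1.29-fold, and no gene fell past the threshold, a limma adjusted p of 0.05 over all genes. The differences of the other 44 genes ran from -0.50 to 0.31 (log2), and none of the 45 reached a 2-fold change. Among all genes tested, 1.02% passed as higher and 0.789% as lower (1.81% in all), and 1 of 45 is 2.22%. Without adjustment, 5 of the 45 genes were higher and 4 lower at a limma p under 0.05, where all genes gave 6.51% higher and 6.16% lower. The 9 genes are 20.0% of the 45, against 12.7% of all genes. The 45 were brighter, with a median vehicle signal of 7.28 against 5.17 over all genes. The part of signal level in such shares was not tested. The DB2313 arrays lay wholly above the vehicle arrays for 7 genes and wholly below for 4, together 24.4% of the 45, against 9.75% and 9.55%, together 19.3%, of all genes. The median log2 difference was 0.0164 over the 45 genes (0.0030 after quantile normalization, and 0.0066 to 0.0234 with any single array dropped, lowest without DB2313 replicate 2) and -0.0024 over all genes tested, and the median absolute differences were 0.0845 and 0.0788.

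**Figure D1:**
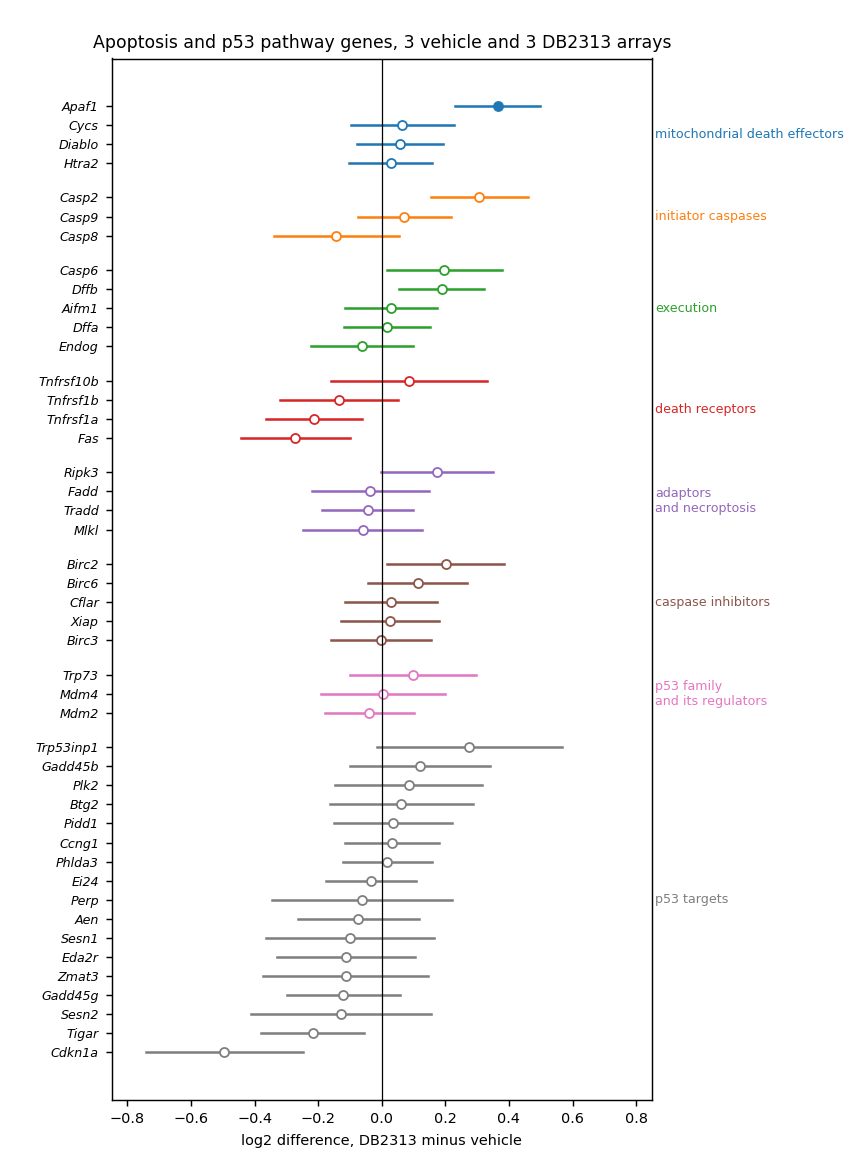
Log2 difference between DB2313 and vehicle (x axis) for each of the 45 measured genes, grouped by role, with the 95% interval from limma as a line; filled points passed an adjusted p of 0.05 and open points did not. Apaf1 is the only filled point, at 0.36, and Cdkn1a lies furthest left, at -0.50.

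The intervals bound what could have been missed. For 43 of the 44 genes that did not pass, the 95% interval of the log2 difference lay inside a 1.5-fold change in either direction. The exception was Cdkn1a, whose interval reached -0.74. For 26 of the 44 the interval lay inside a 1.25-fold change. These bounds hold for each gene alone and on the scale of the deposited values.

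**Figure D2:**
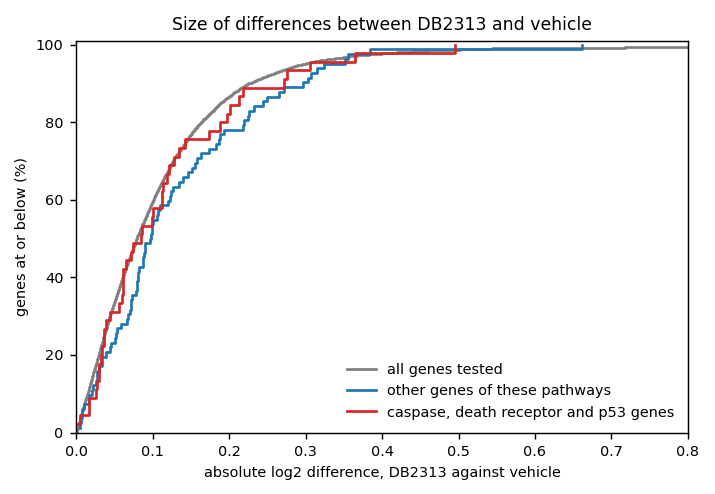
Cumulative share of genes (y axis, percent) at or below an absolute log2 difference between DB2313 and vehicle (x axis) for the 45 caspase, death receptor and p53 genes, for 82 other genes of these pathways and for all 22180 genes tested. The medians are 0.0845, 0.0967 and 0.0788.

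Apaf1 led the genes of the mitochondrial route. Its protein forms the wheel-shaped platform on which caspase 9 becomes active. The log2 signals were 9.21, 9.23 and 9.27 in the vehicle arrays and 9.60, 9.57 and 9.63 with DB2313. The groups lay apart, and the gap between them was several times the spread within either group. The log2 difference was 0.36 (SE 0.0574, 95% interval 0.23 to 0.50, limma adjusted p = 0.0243). Leaving out any 1 of the 6 arrays ended the call, at adjusted p of 0.0722 to 0.114 and log2 differences of 0.35 to 0.38. The partners of Apaf1 differed little. Cycs, which encodes cytochrome c, had a log2 difference of 0.06 (interval -0.10 to 0.23) in the brightest of its 5 rows. Its other rows lay between -0.10 and 0.07, and one pair of them held the same values. Diablo and Htra2 encode mitochondrial proteins that, once released, bind and neutralise inhibitors of apoptosis. Diablo had 0.06, with its groups apart, and Htra2 had 0.03, neither past the test. All 4 genes of this group were above 0, with a median of 0.06.

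Among initiator caspases, Casp2 stood nearest to the threshold. Caspase 2 is activated on a platform built by Pidd1 and an adaptor, and Pidd1 is itself a p53 target. The Casp2 signals were 8.86, 9.00 and 8.88 in vehicle and 9.23, 9.18 and 9.26 with DB2313, so the groups did not overlap. The log2 difference was 0.31 (interval 0.15 to 0.46, limma adjusted p = 0.0776), which did not pass. It passed in 4 of 14 alternative settings, among them the filters on dim genes (adjusted p = 0.0454 and 0.0180). Pidd1 had 0.04. Casp9, the caspase of the apoptosome, gave 7.15, 7.21 and 7.19 in vehicle and 7.30, 7.29 and 7.17 with DB2313, a difference of 0.07 with overlapping groups (interval -0.08 to 0.22). Casp8, the caspase of the death receptors, gave 10.60, 10.34 and 10.36 against 10.35, 10.25 and 10.26. Its groups overlapped, and the difference was -0.14 (interval -0.34 to 0.05, adjusted p = 0.555).

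In the execution phase, caspase 6 cleaves nuclear lamins, and the nuclease DFF40, encoded by Dffb, cuts DNA once its chaperone and inhibitor, encoded by Dffa, is cleaved. Casp6 gave 8.48, 8.29 and 8.26 in vehicle and 8.56, 8.59 and 8.48 with DB2313. The highest vehicle array lay just above the lowest DB2313 array, and the difference was 0.20 (unadjusted p = 0.0374, limma adjusted p = 0.354). Dffb gave 6.45, 6.48 and 6.45 against 6.70, 6.62 and 6.63. Its groups lay apart, with a difference of 0.19 (unadjusted p = 0.0122, limma adjusted p = 0.215). Dffa, the partner of Dffb, had 0.02. The genes for the mitochondrial flavoprotein Aifm1 and the mitochondrial nuclease Endog, both of which can reach the nucleus in dying cells, had 0.03 and -0.06. None of the 5 genes passed, 4 of them were above 0 and their median was 0.03.

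Death receptors lay mostly below 0, without a call. Of the 4 receptors, 3 were lower, where 50.9% of all genes tested lay below 0. The median log2 difference of the 4 was -0.17, and their values ranged from -0.27 to 0.09. Fas, the receptor of Fas ligand and a p53 target, gave 6.71, 6.74 and 6.56 in vehicle and 6.33, 6.40 and 6.47 with DB2313. The lowest vehicle array stood above the highest DB2313 array, and the difference was -0.27 (interval -0.44 to -0.10, unadjusted p = 0.00678, limma adjusted p = 0.160). Tnfrsf1a, the main receptor of tumour necrosis factor, gave 9.61, 9.66 and 9.62 against 9.36, 9.51 and 9.38. These groups did not overlap either, and the difference was -0.21 (interval -0.36 to -0.06, limma adjusted p = 0.215). It passed with a trended and robust prior alone (adjusted p = 0.0237). Tnfrsf1b, the other receptor of that cytokine, which lacks a death domain, had -0.13, and Tnfrsf10b, the receptor of TRAIL, had 0.09. Neither Fas nor Tnfrsf1a passed in the reported fit, and whether the receptors differ as a class from the rest was not tested.

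**Figure D3:**
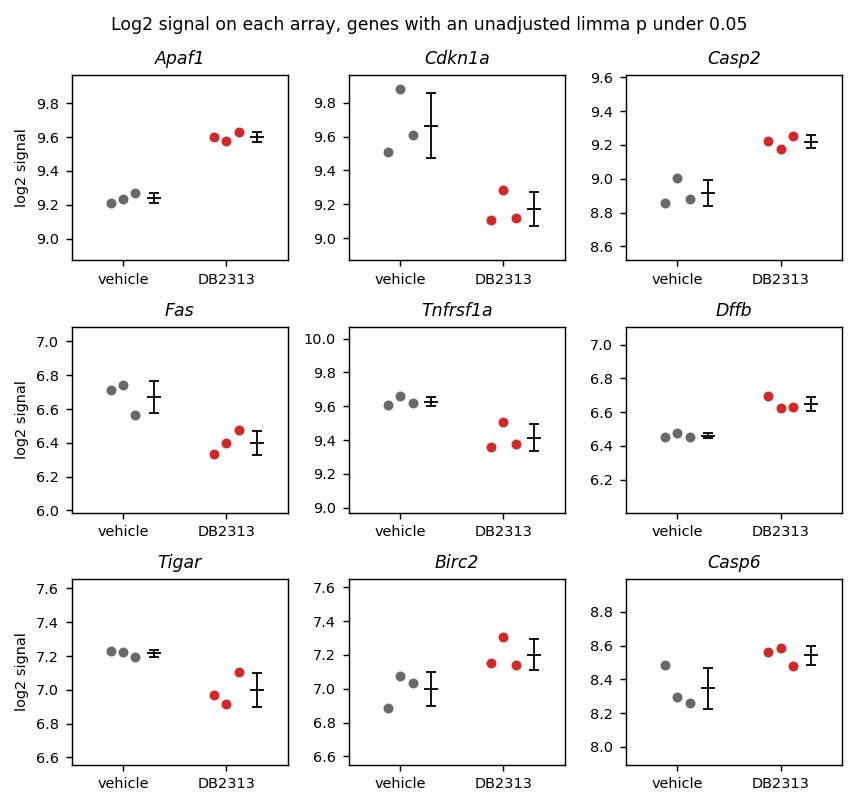
Log2 signal (y axis, the same span in every panel) on the 3 vehicle arrays (grey) and the 3 DB2313 arrays (red) for the 9 genes with an unadjusted limma p under 0.05; black bars give the mean and SD of each group. The groups do not overlap in 8 panels, which the choice of genes by p on these same arrays favours. In the panel of Casp6 the highest vehicle array, 8.48, just exceeds the lowest DB2313 array.

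Adaptors and necroptosis genes did not pass. Ripk3 phosphorylates Mlkl, which breaks the plasma membrane in necroptosis. Ripk3 gave 7.32, 7.34 and 7.54 in vehicle and 7.54, 7.59 and 7.58 with DB2313. The highest vehicle array nearly reached the lowest DB2313 array, and the difference was 0.17 (limma adjusted p = 0.402). Mlkl had -0.06, and the death domain adaptors Fadd and Tradd had -0.04 each. Their intervals all included 0.

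Inhibitors of caspases lay within a narrow range, from -0.0018 to 0.20, with a median of 0.03. Birc2, the ubiquitin ligase cIAP1, gave 6.89, 7.08 and 7.04 in vehicle and 7.15, 7.31 and 7.14 with DB2313. These groups lay apart, with a difference of 0.20 (unadjusted p = 0.0355, limma adjusted p = 0.347). Birc6, a giant ubiquitin ligase that restrains caspases and their antagonists, had 0.11 in the row kept and 0.07 in its other row. Xiap, which binds active caspases directly, had 0.03 (interval -0.13 to 0.18). Cflar, which encodes cFLIP, had 0.03 as well, and Birc3, the ubiquitin ligase cIAP2, had -0.0018. None of the 5 passed.

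Regulators of p53 were nearly level. Mdm2, the ubiquitin ligase of p53 and one of its targets, gave 8.61, 8.66 and 8.64 in vehicle and 8.62, 8.63 and 8.54 with DB2313. The arrays of both groups overlapped, and the difference was -0.04 (interval -0.18 to 0.10, limma adjusted p = 0.854). Mdm4, its relative that blocks the p53 activation domain, had 0.0052 (interval -0.19 to 0.20). Trp73, a relative of p53, was dim, with signals of 5.12, 4.95 and 4.82 in vehicle and 5.06, 5.02 and 5.11 with DB2313. Its difference was 0.10, and it did not pass.

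None of the 17 measured genes of the p53 target group passed, 10 lay below 0 and 7 above, and the median was -0.06. Each gene was given 1 role only, so Fas, Mdm2 and the called gene Apaf1 are not among these 17. Below 0 lay 58.8% of these targets, against 50.9% of all genes tested. Cdkn1a encodes the kinase inhibitor p21, through which p53 stops the cell cycle. It gave 9.51, 9.88 and 9.61 in vehicle and 9.11, 9.28 and 9.12 with DB2313. Replicate 2 was the highest array in both groups, and the groups did not overlap. The difference of -0.50 was the lowest of the 45 genes (SE 0.106, interval -0.74 to -0.25), but its spread was wide and it did not pass (limma adjusted p = 0.0776). It passed in 3 of 14 alternative settings. Tigar, a phosphatase that lowers glycolytic flux, gave 7.23, 7.22 and 7.19 against 6.97, 6.91 and 7.11. Those groups lay apart too, with -0.22 (limma adjusted p = 0.233).

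The other genes of the p53 target group overlapped between vehicle and DB2313. Trp53inp1, a stress protein that promotes p53 activity, had the largest positive difference, 0.28, with an interval of -0.02 to 0.57. The sestrins Sesn1 and Sesn2, which restrain growth signalling through mTORC1, had -0.10 and -0.13. Zmat3, an RNA-binding protein, had -0.11, the nuclease gene Aen -0.07 and the membrane protein gene Perp -0.06. Of the growth arrest genes, Gadd45b had 0.12 and Gadd45g -0.12, with the latter near the median level of all genes. Plk2, Eda2r, Btg2 and Perp were also dim, with vehicle signals of 3.94, 4.31, 5.04 and 5.09 against a median of 5.17 over all genes, so their changes can be understated. Ccng1, a bright p53 target that encodes cyclin G1, had 0.03 (interval -0.12 to 0.18). Phlda3, which competes with the kinase AKT for membrane lipids, had 0.02, Ei24 had -0.03, Btg2 0.06 and Eda2r -0.11.

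Other genes of the same pathways gave 2 calls among 82 measured genes (2.44%), both higher, against 1.81% of all genes. Pmaip1 encodes NOXA, a BH3-only protein that opposes MCL1 and is a p53 target. It gave 6.96, 7.14 and 6.86 in vehicle and 7.52, 7.67 and 7.77 with DB2313, so the groups lay far apart. The difference was 0.66 (SE 0.0964, limma adjusted p = 0.0183), the only call among 14 BCL2 family genes. Of these 14, the groups lay apart for 2 higher and 3 lower, or 35.7% against 19.3% of all genes. Pmaip1 did not pass with the replicate number as a block (limma adjusted p = 0.0645). It passed in 2 of the 6 fits with 1 array dropped, at adjusted p of 0.0265 to 0.0850 over the 6. Tnfaip8 gave 6.06, 6.09 and 6.03 against 6.48, 6.33 and 6.43, a difference of 0.35 (limma adjusted p = 0.0452), and passed in none of those 6 fits (0.0800 to 0.168). It and Pmaip1 were the 2 calls among 31 further p53 targets, of which 16 lay below 0 and 15 above. At an unadjusted limma p under 0.05, 6 of the 31 were higher and 4 lower, 32.3% in all against 12.7% of all genes. The groups did not overlap for 14 of them, 8 higher and 6 lower, or 45.2% against 19.3% of all genes. Of the 17 genes of the p53 target group, 11.8% had such a p and 11.8% did not overlap. Over the 82 genes these shares were 22.0% and 35.4%. The 31 were brighter than all genes, with a median vehicle signal of 6.78 against 5.17. The part of signal level in these shares was not tested. None of 4 other caspases passed, with Casp4, an inflammatory caspase, at 0.30 (limma adjusted p = 0.199) and Casp14, a caspase of skin, at -0.23 (0.289). None of 19 ligands, receptors and adaptors of the tumour necrosis factor family passed, led by the adaptor Cradd at -0.16 (0.408) and the ubiquitin-editing enzyme Tnfaip3 at 0.31 (0.439). None of 17 DNA damage kinases and p53 regulators passed either. The checkpoint kinase gene Chek2 had 0.24 (0.134) and the acetyltransferase gene Ep300 0.23 (0.191). These lists were drawn up with earlier results of these data known.

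**Figure D4:**
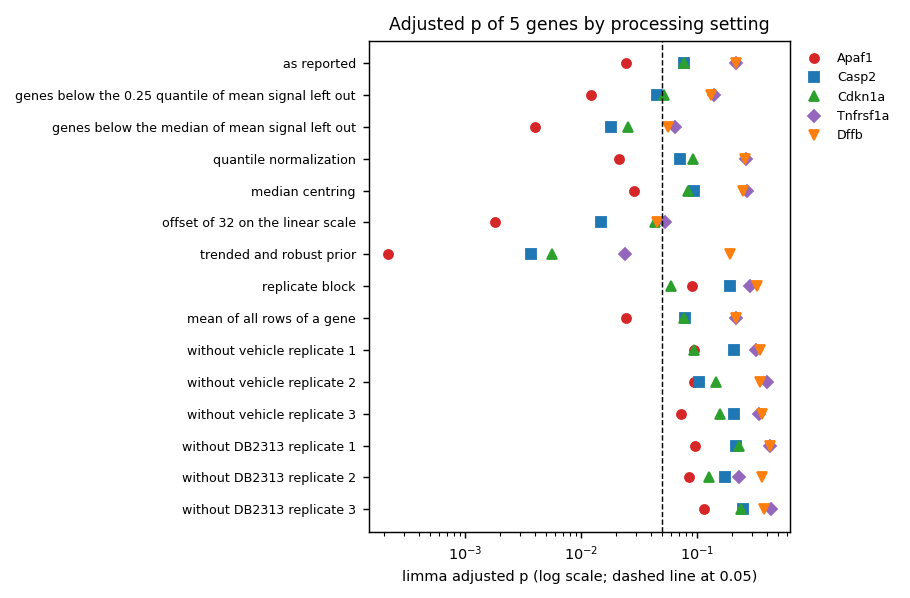
Limma adjusted p (x axis, log scale) of 5 genes under the reported fit and 14 alternative settings (y axis), with a dashed line at 0.05. Apaf1 lies left of the line in the reported fit and 7 alternatives, and right of it with the replicate block (0.0912) and whenever 1 array is left out.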

How the data were processed

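Total RNA of 3 vehicle and 3 DB2313 samples was labelled with an Affymetrix whole-transcript kit and hybridised to Affymetrix arrays, per the labels' protocols. The authors used Affymetrix Expression Console, per the submitters' processing notes; neither background correction, summary method nor genome build is given in these sources. The deposited values are on the log2 scale, as judged from their range (1.67 to 13.22), and nearly equal quartiles are a sign of normalization between arrays. A shift in total RNA would not be seen, and signals near the lower end can understate changes. Scanner files were not used here.

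Of 41345 rows, 23521 had 1 gene symbol in the platform annotation, 1814 had several and 16010 had no entry and are unnamed here. The brightest row per gene over 6 arrays was kept, giving 22180 genes. DB2313 was compared with vehicle by limma 3.58.1 in R 4.3.3 (lmFit, eBayes, 2-sided, Benjamini-Hochberg over all genes at 0.05, 95% intervals). The test was checked on simulated data. The members, role groups, lists and tests were chosen with earlier results of these data known, so no p adjusted over a list alone is given. Values on all arrays are given for genes past the threshold or with an unadjusted p under 0.05, for the smallest p of each role, and for Mdm2, Cdkn1a, Fas, Casp8 and Casp9 whatever their values; outside the 45, genes past the threshold or, where none passed, the 2 smallest p of each pathway list are named, and marker genes only where the labelled cell type is checked. Alternatives were filters on dim genes, quantile normalization, median centring, an offset of 32, a trended and robust prior, a replicate block, the mean of rows, and each array left out.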

Additional observations from a re-analysis of the deposited data

How the results depend on the processing

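Among the caspase, death receptor and p53 genes, the reported fit called 1 higher and 0 lower at a limma adjusted p of 0.05 (5 and 4 at an unadjusted p under 0.05). Quantile normalization, median centring and the mean of all rows gave the same counts. The counts were 2 higher without genes below the 0.25 quantile of signal, 2 higher and 1 lower without genes below the median (39 of the 45 remained), 3 higher and 1 lower with 32 added to the linear signal, and 2 higher and 2 lower with a trended and robust prior. Apaf1 was called in each of these settings. The added calls were Casp2 in all 4, Cdkn1a in all but the filter at the 0.25 quantile, Dffb with the offset and Tnfrsf1a with the trended prior. Higher and lower calls over all genes also rose in each of these 4 settings, as given below. With the replicate number as a block 0 of the 45 were called, and Apaf1 had an adjusted p of 0.0912. Same-numbered samples did not deviate together (correlations of 0.0226, 0.0781 and 0.0083), and not every sample correlated best with its own number. Leaving out 1 array left 0 genes called in each of the 6 cases, in a fit with fewer samples. None of the 14 genes followed through the settings changed sign.

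Of all 22180 genes tested, 226 were called higher and 175 lower in the reported fit. Without genes below the 0.25 quantile, the calls were 298 and 231 of 16635 genes. Without genes below the median, they were 436 and 363 of 11090 genes. Of 22180, the calls were 467 and 363 with the offset, 496 and 424 with the trended prior, and 98 and 92 with the block. With 1 array left out they ranged from 72 to 108 higher and from 63 to 85 lower. The median log2 difference of the 45 genes, 0.0164, was 0.0030 after quantile normalization and ranged from 0.0066 to 0.0234 with 1 array left out. With the mean of all rows, the median log2 difference of the mitochondrial genes was 0.0419 in place of 0.0606. With 1 array left out, role medians ranged from 0.0451 to 0.0895 for mitochondrial genes, 0.0477 to 0.112 for initiator caspases, 0.0098 to 0.0660 for execution, -0.0568 to -0.0116 for adaptors, 0.0233 to 0.0679 for caspase inhibitors, -0.0385 to 0.0878 for p53 regulators and -0.0748 to -0.0116 for p53 targets. For death receptors the median was -0.190, -0.143 and -0.189 without vehicle replicate 1, 2 and 3 in turn. The causes were not tested. Signal over background was not examined, which limits the dimmest genes.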
